A study of Homo sapiens with 12 samples.

Results

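The 9 genes described here, KMT2A, KMT2C, KMT2D, EP300, CREBBP, NCOR1, ASXL1, CHD6 and STAG2, encode regulators of chromatin that are known targets of mutation in bladder cancer. They were chosen by name from 19618 protein-coding genes and not by any measured value. Binding of ARID1A, a DNA-binding subunit of the SWI/SNF remodeling complex, was mapped by CUT&RUN, a method that uses an antibody to bring a nuclease to a protein and recovers the DNA cut out around it. All 12 samples were RT112, a line of human bladder transitional cell carcinoma that the study treated as wild type for ARID1A, with no treatment named in the labels. They formed 4 groups of 3 replicates: ARID1A with the Abcam antibody, ARID1A with the CST antibody, H3K4me3 and IgG. Whether replicates were separate cultures is not stated. H3K4me3, trimethylation of lysine 4 on histone H3, marks active promoters. The mutation status of the 9 genes in RT112 was not analysed here.

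The deposited data were 1 merged list of regions per antibody, with 37501 Abcam, 32932 CST and 9765 H3K4me3 regions on chromosomes 1 to 22 and X. No list of IgG regions was analysed here. The lists give positions without heights or replicates, so depth and replicate error are unknown, no test between antibodies could be made, and a missing region may lie just under the authors' threshold. Of 10 epithelial and urothelial marker genes, 9 had H3K4me3 at the promoter (all but UPK2), and none of 9 markers of leukocytes, endothelium, fibroblasts or hepatocytes did.

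These genes act on chromatin in different ways. KMT2A, KMT2C and KMT2D are methyltransferases of lysine 4 on histone H3, with KMT2A known for promoters and KMT2C and KMT2D for enhancers. EP300 and CREBBP are closely related acetyltransferases that act at enhancers and promoters. NCOR1 is the scaffold of a corepressor complex with the deacetylase HDAC3. ASXL1 binds BAP1 in a complex that removes ubiquitin from histone H2A. CHD6 is an ATP-dependent remodeler, and STAG2 is a subunit of cohesin, the ring complex that shapes chromatin loops.

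A promoter was taken as 1 kb on either side of each annotated transcription start site (TSS) of a protein-coding transcript. The sequences upstream of 3 start sites are shown because these promoters span the range of ARID1A calls. ASXL1 had the widest ARID1A regions of the 9 genes, KMT2C had 2 separate Abcam regions and no CST region, and KMT2D had neither antibody. Each sequence is the 250 bases before the RefSeq start site (GRCh38.p14), 5′ to 3′ in the direction of the gene. Capitals mark the SP and KLF word GGGCGG and the ETS word CCGGAAG on either strand.
ASXL1: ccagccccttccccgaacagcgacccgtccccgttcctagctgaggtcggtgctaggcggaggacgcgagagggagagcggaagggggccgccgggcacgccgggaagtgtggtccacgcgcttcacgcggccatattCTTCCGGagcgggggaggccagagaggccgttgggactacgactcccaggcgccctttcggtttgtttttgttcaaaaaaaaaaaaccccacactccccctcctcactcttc
KMT2C: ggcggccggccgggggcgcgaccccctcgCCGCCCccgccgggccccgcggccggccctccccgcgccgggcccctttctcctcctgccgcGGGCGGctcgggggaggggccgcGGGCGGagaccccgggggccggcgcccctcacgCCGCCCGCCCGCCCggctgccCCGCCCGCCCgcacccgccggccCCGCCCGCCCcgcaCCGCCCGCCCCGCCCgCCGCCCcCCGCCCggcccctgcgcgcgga
KMT2D: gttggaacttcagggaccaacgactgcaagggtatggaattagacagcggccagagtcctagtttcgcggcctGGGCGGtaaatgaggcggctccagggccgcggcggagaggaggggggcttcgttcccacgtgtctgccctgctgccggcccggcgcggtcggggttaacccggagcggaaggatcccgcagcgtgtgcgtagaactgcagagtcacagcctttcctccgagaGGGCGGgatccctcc
These stretches lie at chr20:32358081-32358330 (plus strand), chr7:152436004-152436253 (minus strand) and chr12:49060795-49061044 (minus strand).

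The KMT2C stretch was 92.0% G or C and held 48 CpG dinucleotides, more than 99.7% of the 21532 RefSeq promoters of protein-coding genes, whose median was 17. It held the word GGGCGG 15 times, counting overlaps. KMT2D and ASXL1 each held 23 CpGs, and KMT2D carried GGGCGG 2 times while ASXL1 carried CCGGAAG once. Of all these promoters 54.2% held GGGCGG and 10.7% CCGGAAG. Of the 8 genes with a RefSeq entry, 5 held GGGCGG (KMT2A, KMT2C, KMT2D, CREBBP and STAG2) and 2 held CCGGAAG (ASXL1 and NCOR1). None of the 8 held the AP-1, TEAD, GRHL, FOX, GATA or NRF1 word, which were present in 5.37%, 2.29%, 0.139%, 2.47%, 2.06% and 6.60% of promoters. The G and C content ran from 60.0% at STAG2 to 92.0% at KMT2C, against a median of 62.0%. The RefSeq start site of STAG2 lay 352 bp from the GENCODE start site used below, and the other 7 were at the same base. CHD6 is named only.

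All 9 genes carried H3K4me3 at a promoter, against 53.1% of protein-coding genes. With respect to ARID1A they divided into 4 classes. Regions of both antibodies were present at KMT2A, EP300, ASXL1 and NCOR1. KMT2C, STAG2 and CHD6 had an Abcam region without CST, CREBBP had a CST region without Abcam, and KMT2D had no ARID1A region. Thus 7 of 9 genes had Abcam, against 46.7% of all genes, and 5 of 9 had CST, against 41.9%. Both antibodies were found at 4 of 9, against 38.2%, and at the same 4 genes an Abcam and a CST region overlapped each other, against 38.0% of all genes. These 4 also had H3K4me3, against 33.8% of all genes with all 3.

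Since every member had H3K4me3, the closer background is the 10409 genes that had it. Of those, 63.8% had both antibodies, compared with 4 of 9 members. Abcam alone was found at 12.5%, compared with 3 of 9, and CST alone at 4.94%, compared with 1 of 9. No ARID1A region was found at 18.8%, compared with 1 of 9. With 9 genes chosen for their role, these counts are a description and no test was made.

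**Figure D1:**
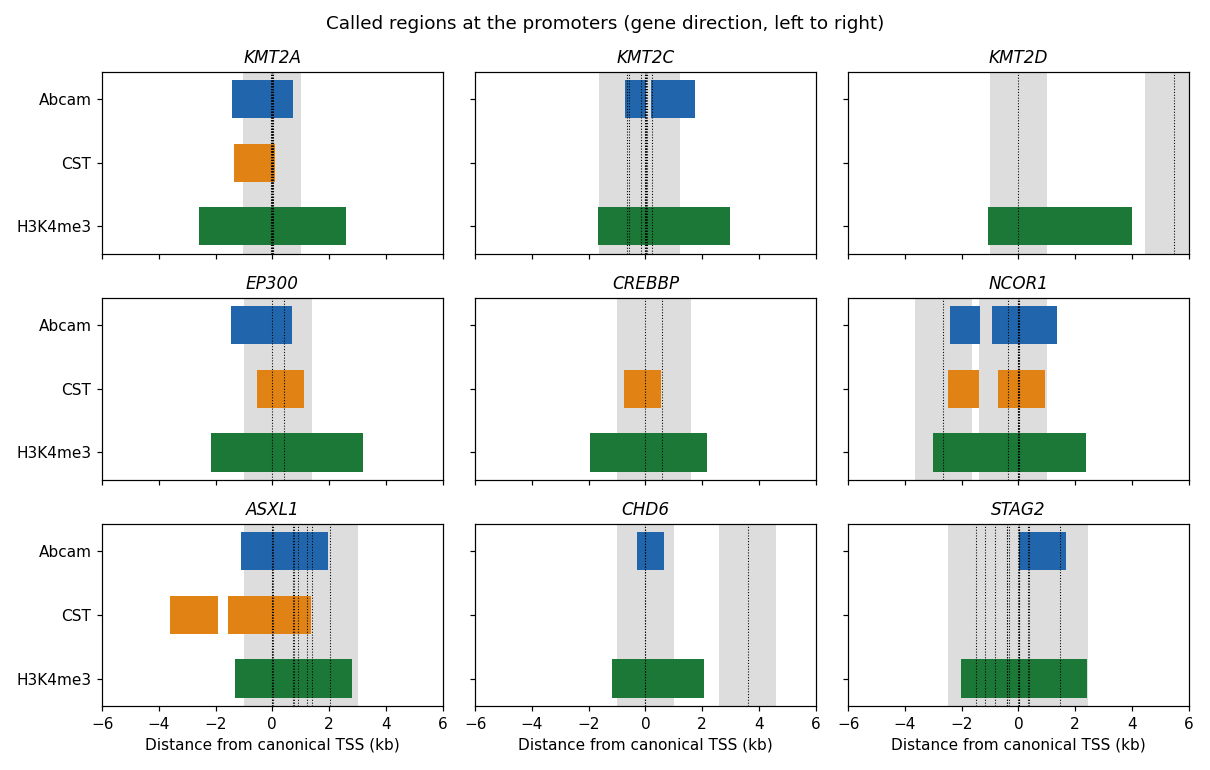
Bars are regions of ARID1A by Abcam (blue) and by CST (orange) and of H3K4me3 (green), drawn within 6 kb of the canonical TSS of each gene, in kb and in the direction of transcription. Dotted lines are TSSs of protein-coding transcripts and grey bands are 1 kb on either side of them. Every gene has a green bar over its TSS, 4 have both blue and orange bars there, and KMT2D has neither.

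Among the histone methyltransferases, KMT2A (chromosome 11, 118436456 to 118526832, plus strand) had an Abcam region of 2176 bp and a CST region of 1465 bp. The CST region, from -1364 to +100 bp relative to the canonical TSS, lay wholly within the Abcam one. Both leaned upstream, with midpoints at -350 and -632 bp, whereas the H3K4me3 region of 5178 bp was nearly symmetrical, reaching 2586 bp upstream and 2591 bp downstream. No region of any list lay at the internal start sites of KMT2A, which begin 47691 bp downstream.

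At KMT2C (chromosome 7, 152134922 to 152436644, minus strand) the Abcam signal was called as a pair of regions on either side of the first part of the transcript. A region of 740 bp ran from -717 to +22 bp, over the G and C rich sequence shown above, and a region of 1535 bp ran from +213 to +1747 bp. The former was wider than only 4.63% of Abcam regions. The H3K4me3 region of 4682 bp spanned both. The nearest CST region lay 27065 bp from the canonical TSS.

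KMT2D (chromosome 12, 49018975 to 49060794, minus strand) had an H3K4me3 region of 5082 bp, wider than 92.1% of the widest promoter regions of other genes, and no ARID1A region over it. This region lay mostly within the transcribed side, reaching 1069 bp upstream and 4012 bp downstream. The nearest ARID1A regions, 8594 bp (Abcam) and 8535 bp (CST) from the TSS, overlapped each other at the promoter of the neighboring gene RHEBL1. KMT2D stayed without ARID1A with a window of 3 kb, with the TSSs of all transcripts and with near regions joined. The other alternative settings could only remove regions, so they could not change this call.

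The acetyltransferase genes differed from each other in their calls. At EP300 (chromosome 22, 41092592 to 41180077, plus strand) an Abcam region of 2154 bp and a CST region of 1667 bp shared 1245 bp over the TSS. They were offset, the Abcam midpoint lying at -390 bp and the CST midpoint at +276 bp. At CREBBP (chromosome 16, 3725054 to 3880713, minus strand) there was a CST region of 1290 bp over the TSS, from -747 to +542 bp, and the nearest Abcam region was 54943 bp away in an intron. H3K4me3 measured 5365 bp at EP300 and 4099 bp at CREBBP. With regions narrower than the median of their list left out, CREBBP had no ARID1A region.

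NCOR1 (chromosome 17, 16029065 to 16218185, minus strand) had 2 regions with each antibody under an H3K4me3 region of 5398 bp, the widest of the 9 genes. The pair over the canonical TSS measured 2282 bp with Abcam and 1656 bp with CST and shared 1656 bp. The upstream pair, of 1083 and 1094 bp, shared 1039 bp, which is 91.3% of their joint extent. This promoter is head to head with PIGL, which encodes an enzyme of glycosylphosphatidylinositol anchor synthesis. All 5 regions also lay at a PIGL promoter, so they cannot be assigned to NCOR1 alone.

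ASXL1 (chromosome 20, 32358330 to 32439319, plus strand) had the widest ARID1A regions of the group, 3086 bp with Abcam and 2944 bp with CST, each wider than 93.2% of its list. They shared 2491 bp, and all 9 start sites of the gene lay within 1 kb of each. H3K4me3 there measured 4111 bp. A further CST region of 1710 bp, without Abcam, lay just upstream from -3617 to -1908 bp.

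CHD6 (chromosome 20, 41402083 to 41618384, minus strand) had the narrowest set, an Abcam region of 957 bp over the TSS and an H3K4me3 region of 3230 bp. The Abcam region was wider than 14.1% of its list and was lost when regions narrower than the median were left out. At STAG2 (chromosome X, 123960212 to 124422664, plus strand) the Abcam region of 1649 bp ran from +37 to +1685 bp, beside rather than over the canonical TSS, within an H3K4me3 region of 4414 bp. It did not count at the most upstream of the 13 start sites of STAG2. The nearest CST regions lay 63786 bp from the TSS of CHD6 and 40879 bp from that of STAG2.

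**Figure D2:**
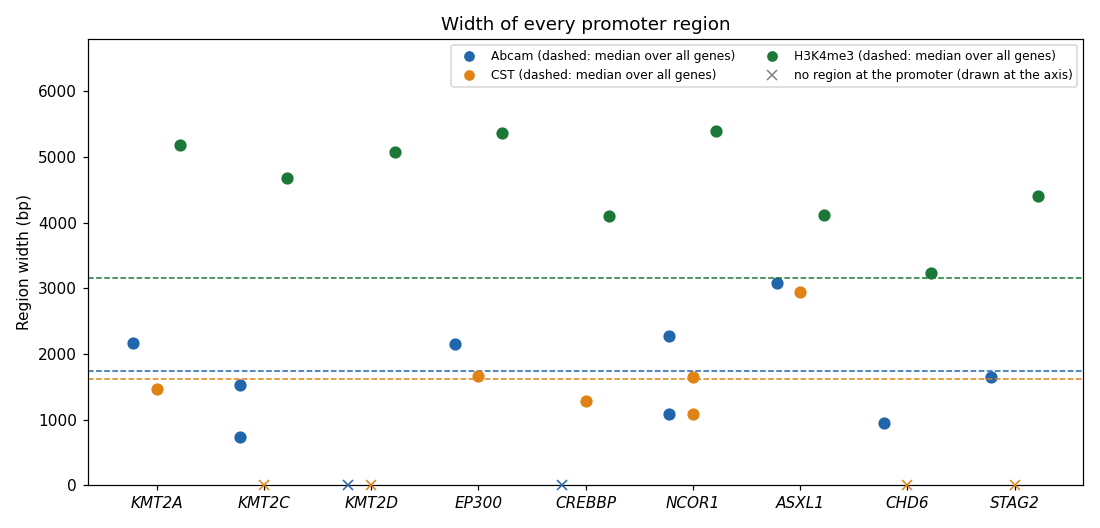
Width in bp of each region at the promoter of each gene (points, Abcam in blue, CST in orange, H3K4me3 in green), with the median over all genes that have such a region as a dashed line. Crosses at the axis mark genes without a region in that list. All 9 H3K4me3 points are above their median of 3156 bp, whereas the ARID1A points fall on both sides of theirs.

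The H3K4me3 regions of all 9 genes were above the median width, at CHD6 by little. Their widths ran from 3230 bp at CHD6 to 5398 bp at NCOR1, against a median of 3156 bp and a 90th percentile of 4824 bp over the 10409 genes with such a region. Of the 9, 4 were above that percentile (KMT2A, KMT2D, EP300 and NCOR1). At 8 of 9 genes (all but NCOR1) the region reached further downstream than upstream of the canonical TSS, against 76.2% of genes with H3K4me3 over that site. At KMT2A the reach was nearly equal, 2591 against 2586 bp, and the NCOR1 region also lay at a PIGL promoter. The ARID1A regions varied more, from ASXL1, wider than 89.8% (Abcam) and 90.9% (CST) of the widest promoter regions of genes, to CHD6, wider than 5.28% (Abcam). The median of the widest promoter region was 1741 bp with Abcam and 1613 bp with CST. With Abcam, KMT2A, EP300, ASXL1 and NCOR1 were above it and KMT2C, STAG2 and CHD6 below. With CST, EP300, ASXL1 and NCOR1 were above it and KMT2A and CREBBP below.

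By the widest region of each list, ARID1A was narrow relative to H3K4me3 at each gene with a region except ASXL1. The ratio of the widest Abcam region to the widest H3K4me3 region was 0.420 at KMT2A, 0.401 at EP300, 0.423 at NCOR1, 0.374 at STAG2, 0.328 at KMT2C and 0.296 at CHD6. Each of these was below the median of 0.562 over 7941 genes with both. At ASXL1 it was 0.751, higher than 78.8% of those genes. With CST the ratio lay between 0.283 (KMT2A) and 0.315 (CREBBP) at 4 genes and was 0.716 at ASXL1, against a median of 0.509 over 7151 genes. Where a promoter had 2 regions of an antibody, their sum was a larger part of the H3K4me3 width, 62.3% (Abcam) and 50.9% (CST) at NCOR1 and 48.6% (Abcam) at KMT2C. The medians are of the widest region alone and do not apply to these sums. Of the 15 ARID1A regions at these promoters, all but the CST region of ASXL1 lay wholly inside the H3K4me3 region. Among genes with all 3 lists, the widest promoter region lay inside H3K4me3 in 72.7% with Abcam and 74.9% with CST. The like figures for the members cover only the 4 with all 3 lists. There the widest Abcam region lay inside at each, and the widest CST region at all but ASXL1.

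Away from promoters, few ARID1A regions lay inside these long genes, which was also true of many other long genes. The 9 genes extend over 1.63 Mb in total, from 41.8 kb at KMT2D to 462.5 kb at STAG2. Leaving out regions within 1 kb of any protein-coding TSS, their bodies held 3 Abcam and 4 CST regions. NCOR1 accounted for 2 and 3 of these, and CREBBP for 1 Abcam and CHD6 for 1 CST region. Of the 3 CST regions at NCOR1, 1 only reached into the 3′ end of the gene and had its midpoint in an exon of TTC19. The Abcam region that overlapped it ended short of NCOR1 and was counted in the flank. KMT2A, KMT2C, KMT2D, EP300, ASXL1 and STAG2 held none.

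For 4718 genes of at least 40 kb with H3K4me3 at a promoter, 43.0% had no region of either antibody inside the gene, compared with 6 of 9 members. By antibody the shares were 46.4% for Abcam and 48.0% for CST, compared with 7 of 9 each, and 52.3% for an Abcam region overlapped by CST, compared with 8 of 9. The median of the 4718 genes was 0.582 Abcam and 0.438 CST regions per 100 kb of gene body, and 0 for an Abcam region overlapped by CST. Summed over genes, which gives dense genes more weight, the members had 0.185 Abcam and 0.246 CST regions per 100 kb of gene body. The sums over the 4718 genes were 1.34 and 1.19. The extent of STAG2 matters here. GENCODE gives it 462.5 kb and RefSeq 142.1 kb, and with the latter, an alternative chosen after the data were seen, the members had 0.230 and 0.306 per 100 kb. KMT2C shares near-identical copies of some exons with other chromosomes, and the authors removed reads that did not map uniquely, so a missing region in that part of KMT2C is uncertain.

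**Figure D3:**
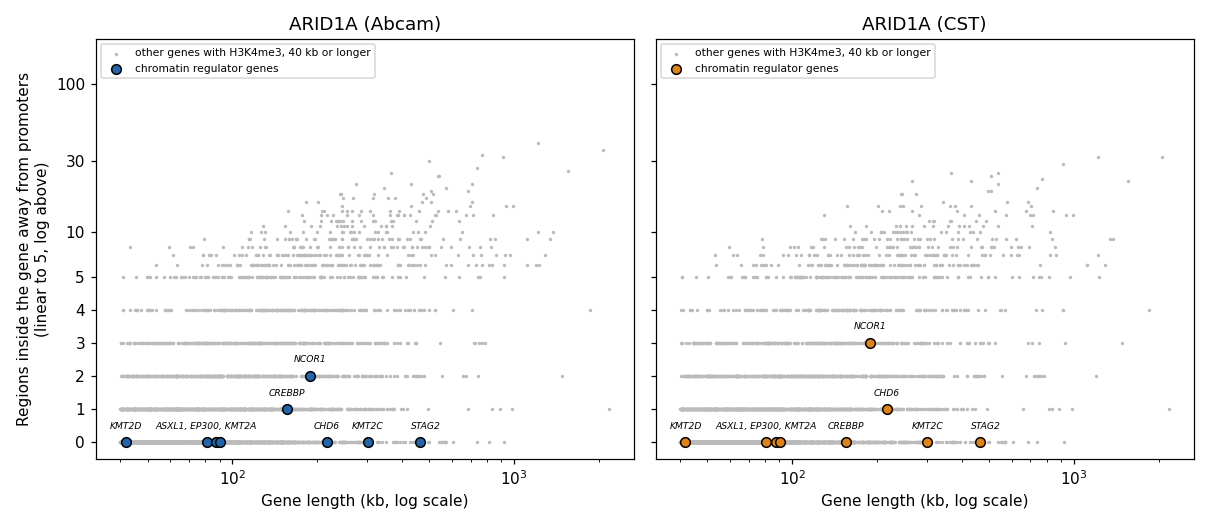
Number of ARID1A regions inside each gene and away from promoters (linear up to 5, log above) against gene length in kb (log scale), for Abcam (left) and CST (right). Grey points are genes of at least 40 kb with H3K4me3 at a promoter, and colored points are the 9 chromatin regulator genes. With each antibody 7 of the 9 sit at 0, and NCOR1 is the highest.

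Within 50 kb on either side the picture differed from gene to gene. Bodies and flanks together held 20 Abcam and 20 CST regions away from promoters, of which 17 and 16 touched only the flanks. There were 14 Abcam regions overlapped by CST, in 15 shared stretches, and 6 genes had at least 1: KMT2A, KMT2C, EP300, STAG2, ASXL1 and NCOR1. To have at least 1 was common. Only 28.0% of the 4718 genes had a lower density of such regions than STAG2, which had 1. The density was 0.554 per 100 kb over the members, against 1.08 over the 4718 genes. Over gene and flanks the members had 0.792 regions per 100 kb with each antibody, against 1.42 (Abcam) and 1.26 (CST) over the 4718 genes. Of the 15 shared stretches 10 had their midpoint in an intron, 4 between genes and 1 in an exon of TTC19.

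ASXL1 had the most. Its window held 6 Abcam and 9 CST regions away from promoters. The density was 4.97 per 100 kb with CST, higher than in 98.1% of the 4718 genes, and 3.32 with Abcam, higher than in 89.4%. For Abcam regions overlapped by CST it was 2.76, higher than in 90.5%. The CST density depends in part on how regions were split. With regions under 500 bp apart joined, the CST count over all members fell from 20 to 18, and the regions lost were at ASXL1. Apart from the CST region just upstream of the promoter, the regions lay in a pair of groups outside the gene. In the introns of KIF3B, a kinesin motor gene upstream, 4 shared stretches lay between -36881 and -27438 bp relative to the ASXL1 TSS, and the longest of them, 2658 bp, was the longest of any member. In the introns of NOL4L, downstream, 2 shared stretches lay 107.3 and 117.2 kb after the TSS. None of those in KIF3B overlapped H3K4me3, and the one at 117.2 kb did, in an H3K4me3 region of 2216 bp.

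The stretches at STAG2 and NCOR1 are shown because they carry the AP-1 word TGANTCA, the binding motif of JUN and FOS family factors. Each is the central 300 bases of the stretch that both antibodies shared, from hg38, plus strand, with the word in capitals. None of the ETS, TEAD, GRHL, FOX and GATA words occurs in either.
STAG2 -41.4 kb: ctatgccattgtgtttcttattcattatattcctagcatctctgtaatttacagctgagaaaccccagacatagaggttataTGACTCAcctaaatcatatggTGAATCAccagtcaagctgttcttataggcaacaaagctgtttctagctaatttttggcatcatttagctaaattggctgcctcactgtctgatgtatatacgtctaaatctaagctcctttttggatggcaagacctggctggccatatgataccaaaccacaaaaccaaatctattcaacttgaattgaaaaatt
NCOR1 65.1 kb: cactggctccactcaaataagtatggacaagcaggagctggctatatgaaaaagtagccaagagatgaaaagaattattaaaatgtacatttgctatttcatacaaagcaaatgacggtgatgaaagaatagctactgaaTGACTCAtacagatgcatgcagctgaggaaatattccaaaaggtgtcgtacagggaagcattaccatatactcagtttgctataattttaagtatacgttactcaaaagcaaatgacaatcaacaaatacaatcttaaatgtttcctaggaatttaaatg
They lie at chrX:123920168-123920467, between genes and upstream of STAG2, and at chr17:16150255-16150554, in an intron of NCOR1.

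The STAG2 stretch, of 1020 bp in all, was the only place away from the promoter where an ARID1A region was called in the window of that gene, with 1 region of each antibody. It held the AP-1 word 2 times in its central 300 bases. At NCOR1, 4 shared stretches lay downstream of the promoter. Of these, 2 were in its own introns, 43.8 and 65.1 kb after the TSS, and both antibodies had a region there. Another was at the 3′ end of the gene, 187.4 kb after the TSS, in an exon of the neighboring gene TTC19, and the last was in an intron of ZSWIM7. Across all members 6 of 15 shared stretches away from promoters held the AP-1 word (exact 95% binomial interval 16.3% to 67.7%, for counting error only), against 37.2% of 21632 such stretches in the genome. They were at STAG2, at ASXL1 (2) and at NCOR1 (3).

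Each of the other words was in 3 or fewer of these 15 stretches. CCGGAAG was in 2 (against 1.41%), GGGCGG in 3 (against 7.35%) and the FOX word TGTTTAC in 1 (against 7.83%). The TEAD word ACATTCC, the GATA word AGATAAG, the GRHL word AACCGGTT and the NRF1 motif were in none, against 7.51%, 6.29%, 0.263% and 0.157%. The 3 stretches with GGGCGG, at KMT2C, EP300 and ASXL1, were the 3 that overlapped H3K4me3. Those at KMT2C and EP300 lay within 1 kb of the start of a long noncoding RNA, and the KMT2C one also held CCGGAAG. At the 5 shared stretches on member promoters GGGCGG was in 2 (against 54.5% of 7569), AP-1 in 1 (against 10.4%) and CCGGAAG in none, against 10.5%. With 5 stretches a count of 0 allows a share of up to 52.2%, and over the whole shared stretch in place of its center CCGGAAG was in 60.0% of them, against 28.4% of 7640 whole stretches in the genome. Both strands were read, and a match says only that the letters are there.

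**Figure D4:**
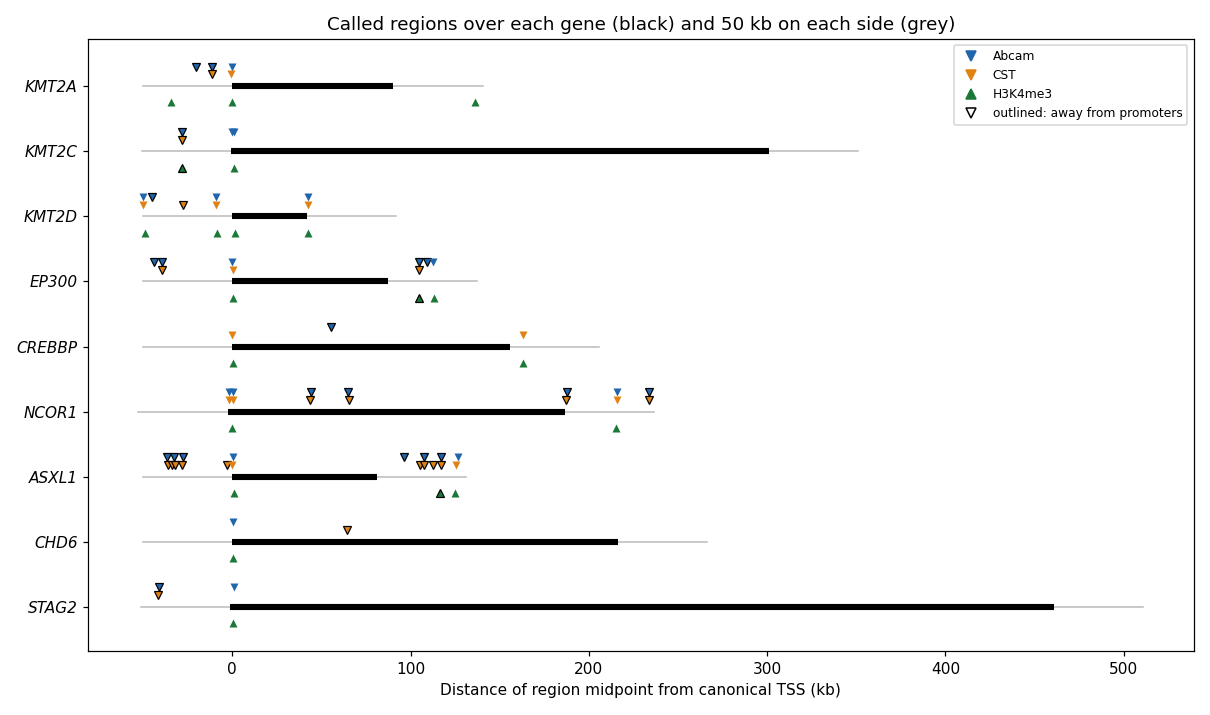
Midpoints of called regions, in kb from the canonical TSS in the direction of transcription, over each gene (black bar) and 50 kb on each side (grey line). Triangles above the bar are ARID1A, blue for Abcam and orange for CST, and those below it H3K4me3 (green), and outlined ones lie away from protein-coding promoters. The bars of KMT2A, KMT2C, KMT2D, EP300, ASXL1 and STAG2 carry no outlined triangle.

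Away from protein-coding promoters, H3K4me3 was called in 3 places around the members, and at all 3 both antibodies had a region too. That is 0.119 H3K4me3 regions per 100 kb, against 0.0227 over the 4718 genes. The share of such regions with both antibodies over the genome is not given here, so the overlap at all 3 has no background. At KMT2C H3K4me3 lay at -28.0 kb, within 1 kb of the start of the long noncoding RNA gene LINC01003. Abcam and CST shared 1918 bp there, under an H3K4me3 region of 3500 bp. That stretch was 72.0% G or C in its center and held GGGCGG 5 times and CCGGAAG once. At EP300 it lay 104.9 kb after the TSS, within 1 kb of the start of EP300-AS1, where the antibodies shared 1600 bp under a region of 1705 bp. Its center was 77.7% G or C and held GGGCGG 4 times. The third was the NOL4L intron near ASXL1. The STAG2 and NCOR1 stretches printed above, without H3K4me3, were 37.0% and 34.3% G or C.

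Some sites away from promoters were called with 1 antibody only. In all, 6 Abcam regions had no CST region over them (2 at EP300 and 1 each at KMT2A, KMT2D, CREBBP and ASXL1), and 5 CST regions had no Abcam region (3 at ASXL1 and 1 each at KMT2D and CHD6). Of the shared stretches not yet described, KMT2A had 1 shared stretch of 1208 bp at -11.4 kb, in an intron of ATP5MG, and EP300 had one of 1343 bp at -39.3 kb. At CREBBP, the Abcam region of 750 bp in an intron was the only site away from the promoter, and at CHD6 it was the CST region of 1298 bp in an intron. KMT2D had 1 Abcam and 1 CST region away from promoters, which did not overlap. At the promoters of its neighbors PRKAG1, RHEBL1 and LMBR1L, by contrast, both antibodies and H3K4me3 were found together. Next to KMT2A the promoters of ATP5MG and of ARCN1 and IFT46 had H3K4me3 (3589 and 2621 bp) without ARID1A, and TRAP1, next to CREBBP, had CST (1558 bp) and H3K4me3 without Abcam, as CREBBP did.

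The members can be set beside 62 other genes of the same complexes and families, listed by function. Of these 51 had Abcam at a promoter (82.3%), 44 had CST (71.0%) and 58 had H3K4me3 (93.5%). Over all protein-coding genes these shares were 46.7%, 41.9% and 53.1%. Both antibodies were found at 42 genes (67.7%, against 38.2% of all genes), Abcam alone at 9, CST alone at 2 and neither at 9. The groups below hold 5 to 16 genes each, so their counts are a description only. Among the 58 genes with H3K4me3 both antibodies were at 72.4%, against 63.8% of all genes with H3K4me3 and 4 of 9 members.

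Of 16 genes of the KMT2 complexes 11 had both antibodies, among them KMT2E (3146 bp with Abcam and 2716 bp with CST) and HCFC1, a scaffold of KMT2 complexes (2604 and 3212 bp). PAXIP1, which encodes a KMT2C and KMT2D complex subunit, resembled KMT2D, with H3K4me3 of 3769 bp and no ARID1A region, and PSIP1 had no region in any list. Of 11 genes of acetyltransferases and their partners 10 had both, among them NCOA3, a coactivator that binds EP300 and CREBBP (3628 and 3500 bp), and CITED2 (3158 and 2281 bp). KAT2A had no region in any list. Of 5 genes of the NCoR complex 4 had both, among them HDAC3, the deacetylase of the complex (2089 and 1516 bp). GPS2 had H3K4me3 of 4118 bp alone.

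The partners and paralogs of ASXL1 were more mixed. Of 9 genes 3 had both antibodies, among them MBD6, whose protein binds the same complex (3895 and 3726 bp) and ASXL2 (2545 and 2302 bp). BAP1 had H3K4me3 of 3618 bp without ARID1A, and ASXL3 had no region in any list. Of 8 CHD family genes 7 had both, and CHD2 (5517 and 5225 bp) and CHD3 (3916 and 3937 bp) had wider regions than CHD6, with 957 bp by Abcam. CHD5 had no region in any list. Of 13 cohesin genes 7 had both, among them NIPBL, the cohesin loader (4145 and 3960 bp), and CTCF, which halts cohesin on DNA (3579 and 3621 bp). CDCA5 had H3K4me3 of 3872 bp alone. Abcam without CST, the state of STAG2, was found at 4 of the 13, all of which had H3K4me3, against 12.5% of all genes with H3K4me3.

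**Figure D5:**
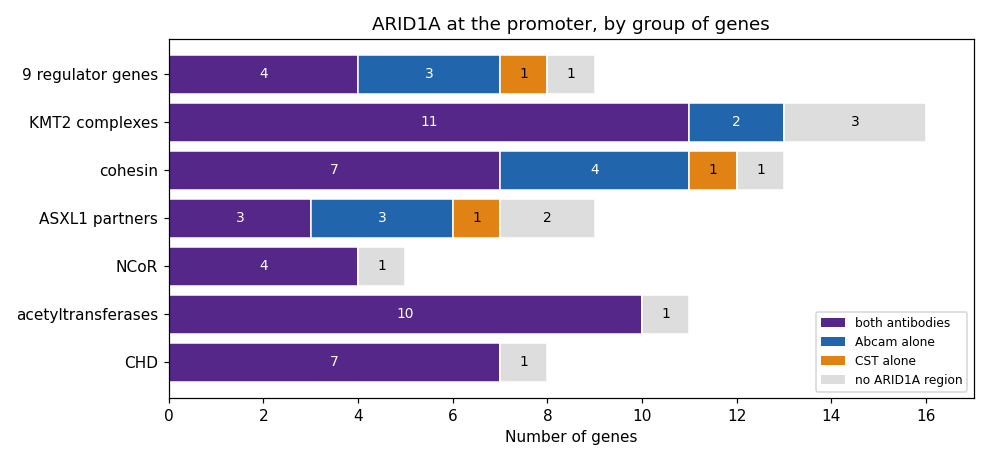
Number of genes with ARID1A at the promoter by both antibodies (purple), Abcam alone (blue), CST alone (orange) or neither (grey), for the 9 chromatin regulator genes and for 6 groups of related genes. Both antibodies were found at 4 of the 9 and at 10 of 11 genes of the acetyltransferase group.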

How the data were processed

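CUT&RUN was performed in 12 RT112 samples, 3 for each of 4 antibodies. According to the study's methods the authors trimmed reads with cutadapt, aligned them with bwa-mem2 to the human (hg38) and E. coli genomes, removed duplicates with Picard and reads that did not map uniquely, scaled coverage to the E. coli spike-in, called regions with SEACR and merged replicates with bedtools. The submitters' processing notes also name bcl2fastq and deepTools. The mode of SEACR differs between the methods (relaxed) and the deposited lists (stringent), so the threshold is uncertain. The methods also state that only a top fraction of the called peaks was kept. Libraries were prepared in batches whose membership is not given. The 3 deposited lists hold positions only (3 columns). A merged region can be wider than in any replicate.

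Regions on chromosomes 1 to 22 and X were used, and 152 (Abcam), 159 (CST) and 14 (H3K4me3) on other sequences were left out. Promoters were 1 kb on either side of the TSSs of protein-coding transcripts in GENCODE release 44 (hg38), and an overlap of 1 bp counted. Percentages of genes that carry a region are over all genes tested. Regions away from promoters were counted over the gene and 50 kb on each side. Motif words were read on both strands in the central 300 bp of stretches shared by both antibodies, leaving out 248 of 29449 that were shorter, and in the 250 bp before RefSeq start sites, for 8 of 9 members. For each member the longest shared stretch away from promoters and any H3K4me3 region there were named by rule, as were, in each related group, the 2 genes with the widest Abcam promoter region among those with both antibodies and the first 2 in alphabetical order without ARID1A. 1 gene that this rule takes is not reported here. Other sites were named after their values were seen. Alternatives were windows of 500 bp and 3 kb, other TSS sets, width and overlap minimums, joining of regions under 500 bp apart, flanks of 20 kb or none, and other lengths for words. No test was made. Python 3.11.15 with pandas 2.3.3 and numpy 2.4.6 was used, and the overlap code was tested on simulated data. The members and lists were chosen with earlier results of these data known.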

Additional observations from a re-analysis of the deposited data

How the results depend on the processing

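Of 93 alternative values for 14 results, 79 stayed within the set margin of the value reported and 14 moved. This tally is not a measure of stability, because some alternatives could change little. The minimum of 200 bp removed no Abcam or H3K4me3 region, as the narrowest were 279 and 440 bp. For the word shares the margin was the exact 95% binomial interval, which is wide (16.3% to 67.7% for AP-1). Counts away from promoters followed the area searched. With flanks of 20 kb the members had 7 Abcam, 7 CST and 1 H3K4me3 regions, and 5 Abcam regions overlapped by CST, against 20, 20, 3 and 14. With the gene body alone they had 3, 4, 0 and 2, and without regions narrower than the median of their list 8, 7, 1 and 4. That width minimum also left 37 of the 62 related genes with H3K4me3, against 58, and took the ARID1A region from CREBBP and CHD6. Both antibodies were left at 28 of the 62, against 42, a fall that the margin for counts still let pass as the same. At the most upstream TSS STAG2 lost its Abcam region, and no other member changed class under the 8 promoter alternatives. Most of these 8 could only remove regions. A missing region could be gained only with the 3 kb window, the TSSs of all transcripts or the joining of regions. CCGGAAG was in none of the 5 promoter stretches by their central 300 bp and in 60.0% over their whole length, against 10.5% and 28.4% over the genome. AP-1 was in 26.7% of distal stretches by the central 200 bp (27.0% over the genome) and in 60.0% over the whole length (72.0%). With STAG2 at its RefSeq extent, an alternative added after the data were seen, the members had 0.230 Abcam and 0.306 CST regions per 100 kb. No paired analysis was possible because the lists were merged over replicates, and for the same reason no replicate could be left out. Depth is unknown, so a region that is missing may lie just under the threshold.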
